A study of Mus musculus with 8 samples.

Results

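Apoptosis is the programmed death by which single cells are removed during organ formation. In the mitochondrial pathway, proteins of the BCL2 family decide whether the outer mitochondrial membrane is opened: pro-survival members such as Bcl2 and Mcl1 hold the pore-forming effectors in check, and BH3-only members such as Bcl2l11 and Bmf release them. Cytochrome c then leaves the mitochondria, binds Apaf1 and starts a chain of proteases, the caspases, which IAP proteins restrain. A separate route starts at death receptors on the cell surface, and the factor p53 feeds into the mitochondrial route by switching on BH3-only genes. Dying cells are a known feature of the developing optic cup and of closing epithelia.

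The genes described here were 31 members of this machinery, chosen by name with earlier results of these data known. Every probe set whose annotated symbol is one of them was taken. The annotation named 85 probe sets for 29 of the 31, out of 45101 probe sets in the table and 18194 genes with a single symbol. Bax and Trp53 were not analysed here. Of the 29 genes, 26 had at least 1 probe set above a signal filter that removed the lowest 40% by mean log2 signal over all arrays (below 3.94), with 63 such probe sets in all, against 13050 genes and 27022 probe sets tested in the whole series. Each gene was read through its tested probe set with the highest mean signal, and for the genes described in most detail the other tested probe sets are given too.

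The tissue was optic fissure, a cleft on the underside of the eye cup that closes as its edges meet and fuse, collected by laser capture. The embryos were wild-type C57BL/6 mice of embryonic day 10.5 (E10.5, 3 arrays), 11.5 (E11.5, 3 arrays) and 12.5 (E12.5, 2 arrays). No embryo was treated or mutant, and stage was the only labelled factor. Each array held RNA pooled from 3 embryos, named in one label as of a single litter and in the protocol as of separate litters. The RNA was amplified by 2 rounds of in vitro transcription, and each array is called here by its stage and the letter in its title. Of 15 optic fissure and optic cup genes measured as a check of the tissue, Six3 read between 10.14 and 12.04 and Vax2 between 8.25 and 10.1 on every array, and Vax1 between 7.60 and 9.01. Others of the list read lower, such as Zfp703 at 5.39 to 6.23 and Tbx5 at 4.50 to 7.15. In the test described below, 1 of the 15 was higher and 2 were lower at E12.5 than at E10.5. The shares of all genes there were 3.49% and 1.78%. Ntn1, a guidance cue of the fissure margin, had a highest value of 8.83 and a lowest of 4.10. Its log2 change from E10.5 to E12.5 was -4.04, the lowest of the 15. Pax2 was not analysed here.

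The arrays differed as wholes, and this touches the members. The 99th percentile of log2 signal lay between 12.5 and 12.9 at E10.5, between 11.2 and 12.4 at E11.5 and between 12.5 and 12.6 at E12.5, while array medians lay between 4.37 and 4.48. For the Gapdh control, the log2 ratio of 3 prime over 5 prime signal lay between 4.19 and 4.71, between 3.36 and 4.63, and between 4.78 and 5.17 at the successive stages. On E11.5 A, B and C this ratio was 3.36, 3.94 and 4.63, where the 99th percentile was 11.2, 11.8 and 12.4. Transcript completeness and array brightness can therefore not be told apart in it. E11.5 A had the lowest value of both measures, and it stood at -80.8 on the second principal component, with E10.5 C at -81.6 on the first. The lowest of the 8 values fell on E11.5 A for 12 of the 26 members, and for 38% of all 13050 genes. The highest fell on E10.5 C for 10 of the 26, and for 32.7% of all genes.

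2 members passed, both between the first and the last stage. Between E10.5 and E11.5 limma, with Benjamini-Hochberg adjustment over all 27022 probe sets and a threshold of 0.05, called 0 of the 26 members, where 0.176% of all genes were called, and 4 members had an unadjusted p below 0.05 against 22.2% of all genes. Between E11.5 and E12.5 it called 0 of 26, where 2.02% of all genes were called, and 3 had an unadjusted p below 0.05 against 18.1% of all genes. Between E10.5 and E12.5 it called 2 of 26, Bcl2 higher and Bmf lower, where 5.26% of all genes were called (3.49% higher and 1.78% lower). That share of members, 7.69%, is near the background, and 7 had an unadjusted p below 0.05 against 24.2% of all genes. An F test for any difference among the 3 stages called 1 of 26, Bcl2, where 3.38% of all genes were called.

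The median changes of the members lay near those of all genes. Their median log2 change was -0.22 from E10.5 to E11.5 against -0.22 for all genes, 0.16 from E11.5 to E12.5 against 0.11, and -0.11 from E10.5 to E12.5 against -0.10. After quantile normalization, which moved the first median of all genes to -0.00, the members stood at 0.02, -0.07 and -0.11 against -0.00, -0.07 and -0.07. The E11.5 mean was the lowest of the 3 stages for 12 of 26 members (46.2%) and for 46.6% of all genes. Means rose through the stages for 4 members (Bcl2, Bid, Birc2 and Cflar) and declined through them for 7 (Bcl2l1, Bbc3, Bik, Bmf, Hrk, Birc6 and Fadd), against 13.5% and 25.7% of all genes. These counts describe the order of means and carry no test.

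**Figure D1:**
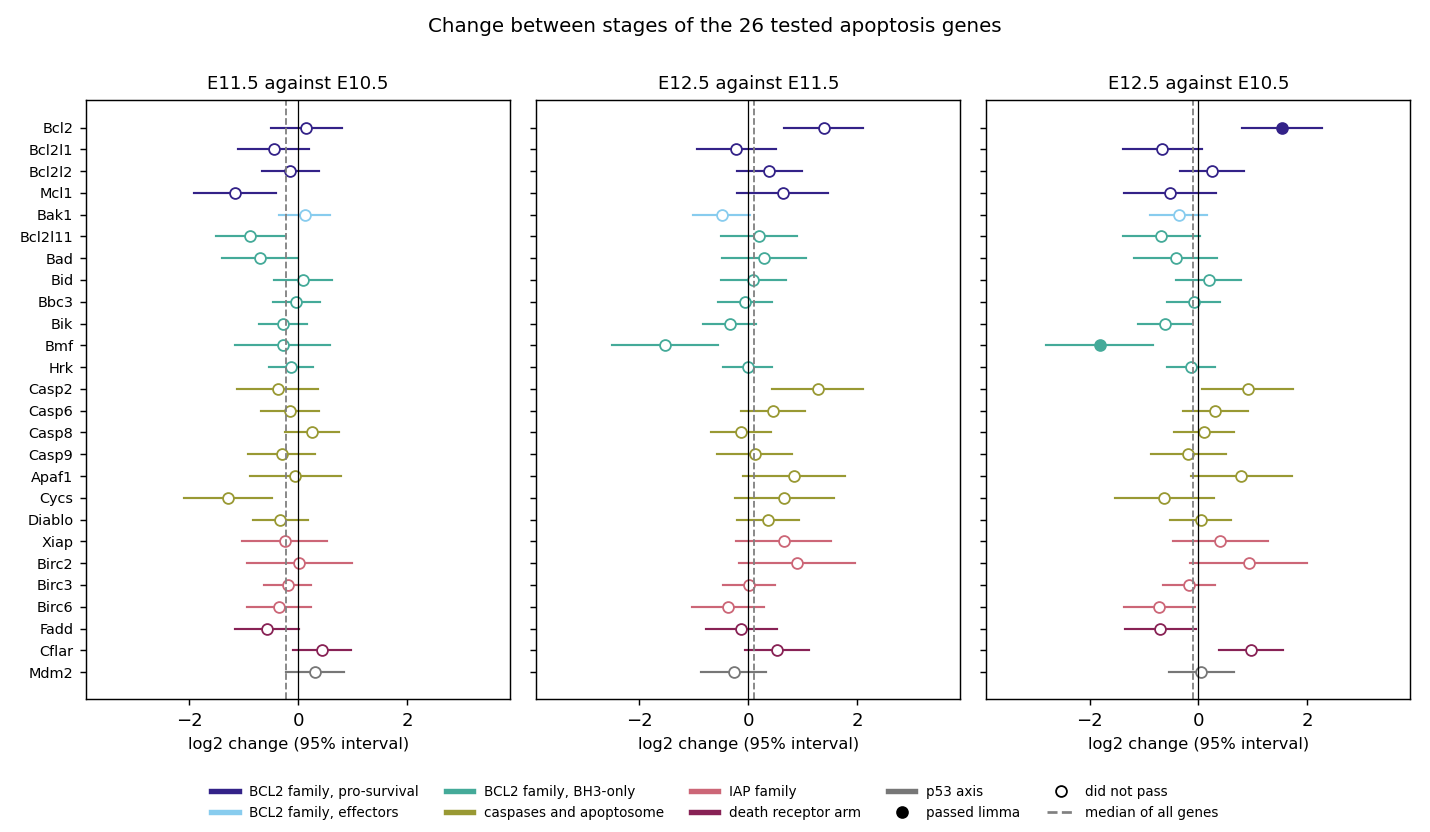
Log2 change of each of the 26 tested genes between stages (x axis) with its 95% interval from limma, in 3 panels for the 3 comparisons; colours give the role, filled points passed and open points did not, and the dashed line is the median of all genes. In the E12.5 against E10.5 panel the filled points are Bcl2 at 1.54 and Bmf at -1.81, and in the other panels every point is open.

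Among the pro-survival members, which bind and restrain the effectors, Bcl2 was higher in late fissure tissue. Its log2 signal was 8.80, 8.88 and 8.66 on the E10.5 arrays A, B and C, 8.36, 9.02 and 9.44 on the E11.5 arrays, and 10.40 and 10.24 on the E12.5 arrays. Both E12.5 arrays lay above all 6 earlier ones, while E10.5 and E11.5 overlapped. Bcl2 rose by 1.54 from E10.5 to E12.5 (SE 0.33, 2.90-fold, limma adjusted p = 0.0263). Its stage means were 8.78 ± 0.11 (SD, n = 3) and 10.32 ± 0.11 (SD, n = 2). In pooled tissue such as this, fewer cells of a type and less RNA per cell cannot be told apart, and p-values measure the spread between these arrays. The change from E11.5 to E12.5 was 1.38 (SE 0.33, adjusted p = 0.0664) and that from E10.5 to E11.5 was 0.15 (SE 0.30, adjusted p = 0.809). The rise was as large after quantile normalization (1.54, adjusted p = 0.00425), and 1.48 with E10.5 C and E11.5 A left out together (adjusted p = 0.00849). With single arrays left out it lay between 1.46 and 1.61, and the call was lost without E10.5 A (adjusted p = 0.0588), E11.5 B (0.0579), E12.5 A (0.168) or E12.5 B (0.224).

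The other tested Bcl2 probe sets did not all show this. The probe set 1440770_at read 7.75, 6.77 and 6.67 at E10.5, 6.79, 7.26 and 7.09 at E11.5, and 8.0 and 7.99 at E12.5, a change of 0.93 from E10.5 that did not pass (adjusted p = 0.129). The probe set 1437122_at read 3.98, 4.19 and 4.23 at E10.5 and 4.62 and 4.68 at E12.5, also without overlap and without passing. In 1443837_x_at the E10.5 arrays alone spanned 4.19 to 8.40, and in 1422938_at the change was -0.19. Averaged over its 5 tested probe sets, Bcl2 stood 0.72 higher at E12.5 than at E10.5 and did not pass (adjusted p = 0.104). The call therefore belongs to 1 of 5 probe sets, 4 of which were higher at E12.5 than at E10.5.

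**Figure D2:**
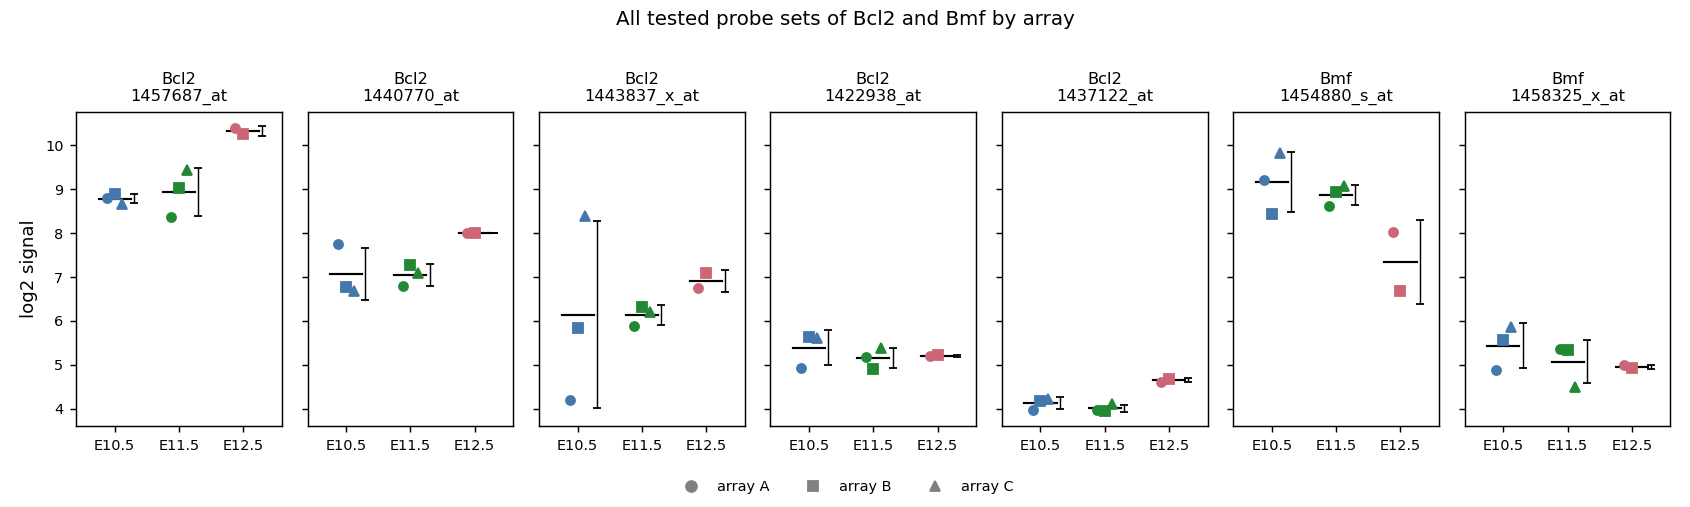
Log2 signal (y axis) by stage (x axis) of the 5 tested Bcl2 and 2 tested Bmf probe sets; each point is an array, the shape gives its letter, and bars are the stage mean and SD (n = 3, 3 and 2). The leftmost Bcl2 probe set stands at 10.40 and 10.24 at E12.5, above its other 6 arrays, and the x_at probe set of Bcl2 spans 4.19 to 8.40 at E10.5.

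Mcl1, a short-lived pro-survival protein needed by many embryonic cells, read 12.16, 11.69 and 12.58 at E10.5, 10.57, 10.99 and 11.41 at E11.5, and 11.60 and 11.65 at E12.5. Every E11.5 array was below every array of the other stages. The change from E10.5 to E11.5 was -1.15 (SE 0.34, 95% interval -1.91 to -0.40, adjusted p = 0.159) and did not pass, and after quantile normalization it was -0.21. Of its 6 tested probe sets all were lower at E11.5 than at E10.5, from -1.15 to -0.31. Bcl2l1, which encodes BCL-XL, gave 8.70 ± 0.59 (SD, n = 3), 8.25 ± 0.13 (SD, n = 3) and 8.04 ± 0.00 (SD, n = 2) at the successive stages. Bcl2l2, which encodes BCL-W, gave 6.92 ± 0.30 (SD, n = 3), 6.78 ± 0.29 (SD, n = 3) and 7.17 ± 0.06 (SD, n = 2). Neither passed in any comparison.

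Of the effectors, which form the pore, only Bak1 was measured. Its log2 signal was 5.20, 5.18 and 4.53 at E10.5, 5.23, 5.04 and 5.01 at E11.5, and 4.74 and 4.46 at E12.5. The E12.5 arrays lay below all E11.5 arrays and overlapped with E10.5. The change from E11.5 to E12.5 was -0.49 (SE 0.24, 95% interval -1.01 to 0.03) and did not pass (adjusted p = 0.33).

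Among the 8 BH3-only members, which sense stress and release the effectors, Bmf was lower in late tissue. Its log2 signal was 9.21, 8.45 and 9.82 at E10.5, 8.62, 8.93 and 9.07 at E11.5, and 8.02 and 6.67 at E12.5. Both E12.5 arrays lay below all 6 earlier ones. The E10.5 and the E12.5 arrays each spread widely. Bmf, an activator of death linked to loss of attachment, fell by 1.81 from E10.5 to E12.5 (SE 0.45, limma adjusted p = 0.0426). Its stage means were 9.16 ± 0.69 (SD, n = 3) and 7.34 ± 0.95 (SD, n = 2). From E11.5 to E12.5 the change was -1.53 (SE 0.45, adjusted p = 0.124), which passed after quantile normalization (-1.95, adjusted p = 0.0437). The size rested on E12.5 B, without which the change from E10.5 to E12.5 was -1.14 (adjusted p = 0.544). The call was also lost without E10.5 A (adjusted p = 0.0842), E10.5 C (-1.48, 0.0802), E11.5 A (0.0554), E11.5 B (0.0755) or E11.5 C (0.0527), and kept without E10.5 B or E12.5 A. The called probe set, 1454880_s_at, carries the maker's suffix for probes shared among transcripts. The other tested one, 1458325_x_at, changed by -0.48 and did not pass (adjusted p = 0.411). Averaged over both, Bmf stood at -1.15 and passed (adjusted p = 0.045).

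Bcl2l11, which encodes BIM, a BH3-only protein of neurons and blood cells among others, read 11.1, 10.9 and 11.5 at E10.5, 9.96, 10.4 and 10.4 at E11.5, and 10.5 and 10.4 at E12.5. All later arrays lay below all E10.5 arrays. Its change from E10.5 to E11.5 was -0.88 (SE 0.29, 95% interval -1.51 to -0.25, adjusted p = 0.168), or -0.07 after quantile normalization, and from E10.5 to E12.5 it was -0.68 (adjusted p = 0.241). Of its 4 tested probe sets 3 were lower at E11.5 than at E10.5, while 1456006_at stood 0.26 higher with no overlap (adjusted p = 0.449). Bad, a BH3-only protein held inactive by growth factor signals, gave 7.86 ± 0.55 (SD, n = 3), 7.16 ± 0.43 (SD, n = 3) and 7.45 ± 0.14 (SD, n = 2). Bik, a BH3-only protein of the endoplasmic reticulum, gave 4.93 ± 0.34 (SD, n = 3), 4.65 ± 0.14 (SD, n = 3) and 4.31 ± 0.17 (SD, n = 2), a change of -0.62 from E10.5 to E12.5 that did not pass (adjusted p = 0.133). Bbc3, the p53 target PUMA, stayed between 4.865 and 5.397 on all 8 arrays, Hrk, a BH3-only gene of neurons, between 5.02 and 5.45, and Bid, which links death receptors to mitochondria, between 4.63 and 5.48. Pmaip1, the p53 target NOXA, read 3.07 to 3.45 on its single probe set, below the filter, and was not tested.

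The promoters of the 2 called members are shown because these members passed the threshold between the first and the last stage. Members that did not pass are not thereby shown to be unchanged. They are the 250 bases before the annotated start, 5′ to 3′ on the gene's strand, from RefSeq on GRCm38.p6, and for Bmf the most upstream of 3 annotated starts. Capitals mark GGGCGG, the GC box bound by SP1-type factors, and CCAAT, each on either strand, with no overlap between the motifs. The Bcl2 stretch is chr1:106714291-106714540 on the minus strand, and the Bmf stretch is chr2:118549687-118549936 on the minus strand.
Bcl2: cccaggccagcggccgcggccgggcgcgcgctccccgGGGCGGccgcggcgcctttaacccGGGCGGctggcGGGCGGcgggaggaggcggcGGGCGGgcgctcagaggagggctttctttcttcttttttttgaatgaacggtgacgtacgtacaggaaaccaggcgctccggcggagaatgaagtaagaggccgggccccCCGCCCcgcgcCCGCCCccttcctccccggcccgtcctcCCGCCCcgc
Bmf: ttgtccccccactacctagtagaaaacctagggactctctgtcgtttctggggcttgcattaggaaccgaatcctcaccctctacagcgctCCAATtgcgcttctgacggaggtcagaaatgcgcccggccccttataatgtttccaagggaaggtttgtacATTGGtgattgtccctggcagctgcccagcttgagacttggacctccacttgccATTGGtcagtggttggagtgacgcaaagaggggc
The Bcl2 stretch holds 7 GC boxes and 0 CCAAT matches, and the Bmf stretch 0 and 3. At least 1 GC box was found in 32.7% and at least 1 CCAAT in 33.8% of the 32851 stretches of this length in the RefSeq table. G and C made up 74.8% of the Bcl2 stretch and 54% of the Bmf stretch, against a median of 52.4%. The arrays measured no binding or chromatin, and the matches are a description of letters.

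**Figure D3:**
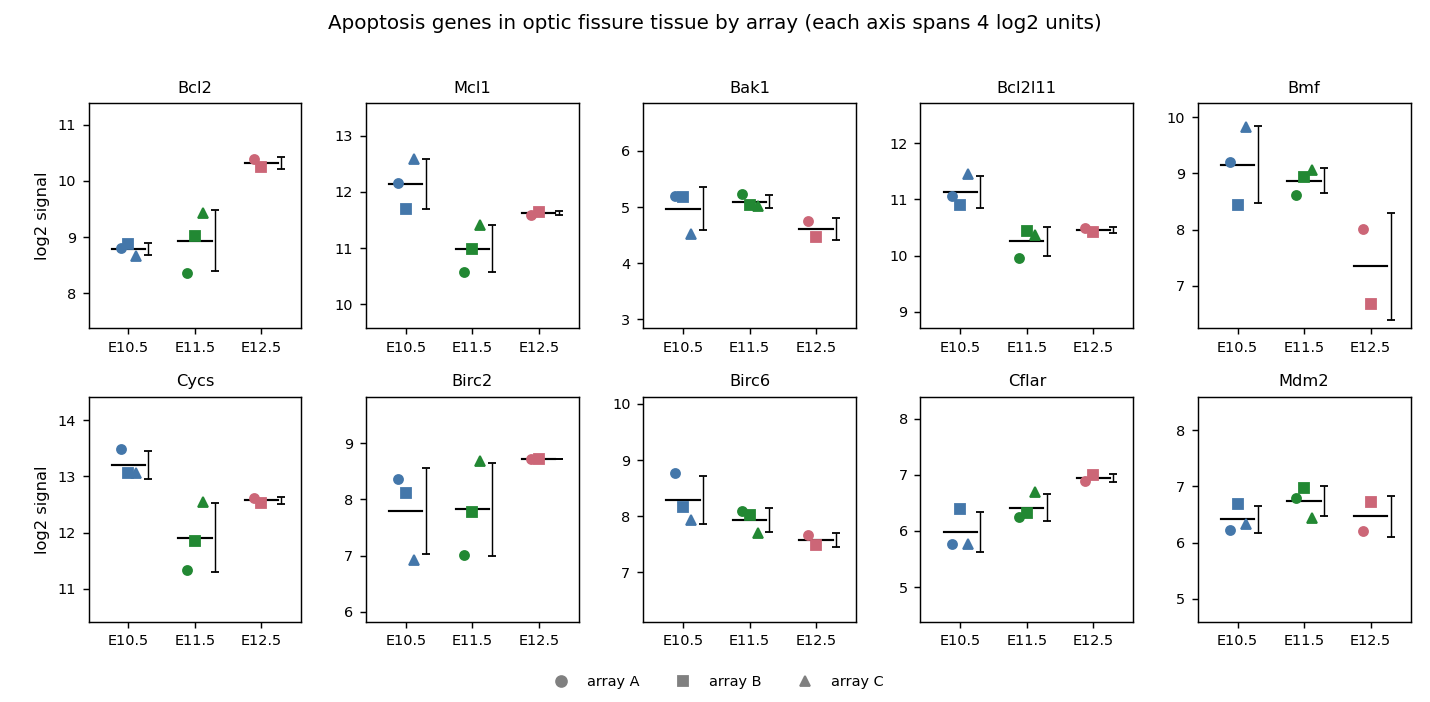
Log2 signal (y axis, spanning 4 units in each panel) by stage (x axis) for 10 members; each point is an array, the shape gives its letter, and bars are the stage mean and SD (n = 3, 3 and 2). Bcl2 stands highest at E12.5 and Bmf lowest, while Mcl1 and Cycs stand lowest at E11.5.

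Of the caspase and apoptosome group 0 of 7 passed, a count that says nothing particular about it where 0.176%, 2.02% and 5.26% of all genes were called in the 3 comparisons. Cycs, cytochrome c, which also carries electrons in respiration, read 13.5, 13.1 and 13.1 at E10.5, 11.3, 11.8 and 12.6 at E11.5, and 12.6 and 12.5 at E12.5. All later arrays lay below all E10.5 arrays. Its change from E10.5 to E11.5 was -1.29 (SE 0.37, 95% interval -2.10 to -0.48, adjusted p = 0.159), -1.004 without E11.5 A and -0.29 after quantile normalization. From E11.5 to E12.5 it was 0.66, and -0.07 after quantile normalization, neither passing. Its 4 tested probe sets ranged from -1.29 to 0.07 from E10.5 to E11.5, with 3 below 0.

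Casp2, an initiator caspase tied to mitotic and DNA damage stress, gave 8.71, 8.32 and 7.93 at E10.5, 7.27, 7.97 and 8.60 at E11.5, and 9.28 and 9.17 at E12.5. Both E12.5 arrays were above the other 6, with a change from E11.5 of 1.28 (SE 0.38) that did not pass (adjusted p = 0.13, and called only without E11.5 C among the fits that left out an array). Casp2 was singled out after its values were seen. Apaf1, the scaffold of the apoptosome, gave 7.66 ± 0.49 (SD, n = 3), 7.60 ± 0.81 (SD, n = 3) and 8.45 ± 0.00 (SD, n = 2). Its E12.5 arrays were above all E10.5 arrays but not above E11.5 C at 8.46. Casp9, the caspase that Apaf1 activates, gave 6.93 ± 0.58 (SD, n = 3), 6.63 ± 0.10 (SD, n = 3) and 6.75 ± 0.13 (SD, n = 2).

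Casp6, a downstream caspase, gave 7.63 ± 0.06 (SD, n = 3), 7.49 ± 0.35 (SD, n = 3) and 7.94 ± 0.19 (SD, n = 2). Casp8, the initiator caspase of death receptors, read between 4.04 and 4.99 over all arrays, with overlap in each comparison. Diablo, which leaves mitochondria and relieves the IAP block, gave 8.19 ± 0.18 (SD, n = 3), 7.87 ± 0.18 (SD, n = 3) and 8.23 ± 0.06 (SD, n = 2), all without passing.

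Of the IAP genes, whose proteins restrain caspases, 0 of 4 passed, which likewise says nothing particular where at most 5.26% of all genes were called. Birc2, which encodes cIAP1, a ubiquitin ligase of TNF receptor complexes, read 8.36, 8.11 and 6.92 at E10.5, 7.01, 7.78 and 8.68 at E11.5, and 8.72 on both E12.5 arrays. Both E12.5 arrays were above all others, yet the early arrays spanned so wide a range that the change from E10.5 of 0.92 had a 95% interval of -0.15 to 1.99 (adjusted p = 0.294). Birc6, a giant ubiquitin ligase needed for placental development, read 8.76, 8.17 and 7.93 at E10.5, 8.10, 8.03 and 7.69 at E11.5, and 7.66 and 7.48 at E12.5. Its E12.5 arrays were below all others, with a change from E10.5 of -0.72 (SE 0.30, 95% interval -1.37 to -0.06, adjusted p = 0.19). Of its 5 tested probe sets 4 were lower at E12.5 than at E10.5, but 1442495_at stood 0.39 higher with no overlap (adjusted p = 0.316), and the average over all 5 was -0.29. Xiap, the direct caspase inhibitor, gave 7.78 ± 0.56 (SD, n = 3), 7.53 ± 0.64 (SD, n = 3) and 8.18 ± 0.15 (SD, n = 2), and its tested probe sets disagreed in sign from E10.5 to E12.5, from -0.33 to 0.40. Birc3, which encodes cIAP2, read between 3.82 and 4.59.

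In the death receptor arm the receptors themselves were among the dimmest probe sets. Fas read 2.87 to 3.20 on its probe set, and the probe sets of Tnfrsf10b, the mouse TRAIL receptor, read 3.11 to 3.75, and none passed the filter. Without detection calls this does not show that the receptors were absent. Cflar, the FLIP protein that blocks Casp8 at the receptor, read 5.77, 6.39 and 5.77 at E10.5, 6.24, 6.31 and 6.69 at E11.5, and 6.893 and 6.998 at E12.5. Its E12.5 arrays were above the other 6, and the change from E10.5 of 0.97 (SE 0.27, 95% interval 0.38 to 1.56) did not pass (adjusted p = 0.0638), although it did without E10.5 B (1.18, adjusted p = 0.0335). Its 3 tested probe sets were all higher at E12.5 than at E10.5, from 0.05 to 0.97. Fadd, the adaptor that recruits Casp8, gave 6.48 ± 0.53 (SD, n = 3), 5.91 ± 0.17 (SD, n = 3) and 5.78 ± 0.12 (SD, n = 2). All later arrays lay below all E10.5 arrays, and the change of -0.70 from E10.5 to E12.5 did not pass (adjusted p = 0.195).

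Of the p53 axis Mdm2, the ubiquitin ligase that keeps p53 low and is itself a p53 target, was measured. It read 6.23, 6.69 and 6.33 at E10.5, 6.79, 6.97 and 6.44 at E11.5, and 6.21 and 6.72 at E12.5, with overlap in each comparison. The change from E10.5 to E12.5 was 0.05 (SE 0.27, 95% interval -0.54 to 0.65). The other tested Mdm2 probe set, 1423605_a_at, read 5.83 and 6.20 at E12.5, above all its earlier arrays. It changed by 0.63 from E10.5 to E12.5 without passing (limma adjusted p = 0.151). From E11.5 to E12.5 the 2 probe sets differed in sign, with 0.492 for 1423605_a_at and -0.265 for the first.

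The precision of these changes was limited by the number of arrays. The unadjusted 95% interval left out a 2-fold change in either direction for 17 of 26 members from E10.5 to E11.5, for 13 from E11.5 to E12.5 and for 11 from E10.5 to E12.5. A 4-fold change was left out for 25, 23 and 24. For E12.5 against E10.5 the members whose arrays did not overlap were 14 of 26 (53.8%), 6 higher and 8 lower, where arrays did not overlap for 47.6% of all genes. From E10.5 to E11.5 they were 5 of 26 (Mcl1, Bcl2l11, Cycs, Diablo and Fadd), all lower, against 22.2% of all genes lower and 3.86% higher. From E11.5 to E12.5 they were 12 of 26, 7 higher and 5 lower, against 46% of all genes.

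**Figure D4:**
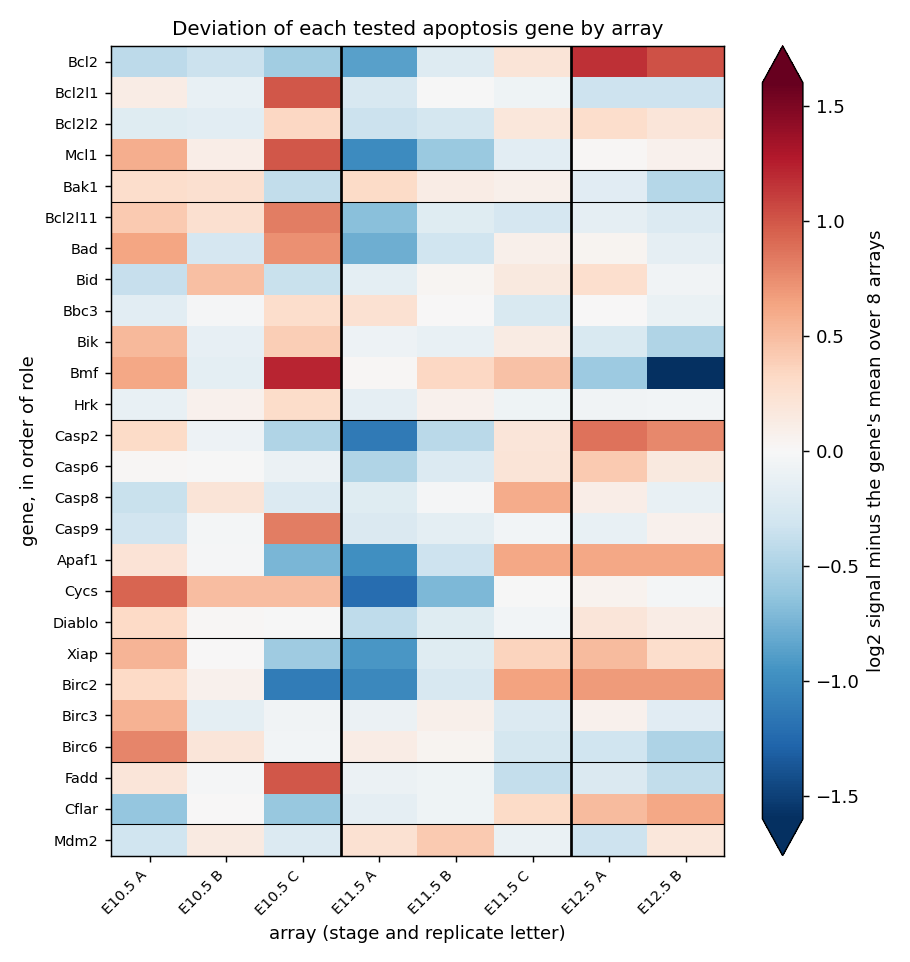
Log2 signal of each tested gene minus its own mean over the 8 arrays (colour, from -1.6 to 1.6), with arrays as columns and genes as rows in order of role. The E11.5 A column holds the lowest value for 12 of the 26 genes, and the Bcl2 and Bmf rows turn in opposite directions in the E12.5 columns.

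RNA of marker genes of other cell types was also measured, and the counts are of genes above the signal filter. A gene is said to rise or fall where limma called it from E10.5 to E12.5. In that comparison 3.49% of all genes were called higher and 1.78% lower. Of 15 measured genes of newborn retinal neurons, 12 rose from E10.5 to E12.5 and none fell, and the log2 of their summed signal went from between 8.41 and 9.05 to between 12.6 and 14.4. E12.5 A stood at 12.6 and E12.5 B at 14.4; there Bcl2 read 10.40 and 10.24 and Bmf 8.02 and 6.67. Of 12 pigment epithelium genes 5 rose and 1 fell, with summed signals of 11.6 to 13.1 and 12.2 to 12.8. Of 13 periocular mesenchyme genes 2 rose and none fell, with 8.75 to 9.20 and 10.04 to 10.73. No macrophage gene passed (0 of 12, 9.62 to 12.46 and 12.85 to 12.94). No endothelial gene passed (0 of 9, 8.52 to 8.75 and 8.82 to 8.86). The red cell list had 1 of 8 lower, the embryonic globin Hbb-bh1, with 14.05 to 14.49 and 14.05 to 14.15, and the lens and surface ectoderm list 1 of 10 higher, Cryab, with 8.57 to 8.91 and 9.60 to 9.87. The part of these marker signals in the Bcl2 and Bmf differences was not tested, nor was that of the Gapdh measure, which did not overlap between E10.5 and E12.5. The same ratio for Actb did overlap, with 6.83 to 6.96 and 6.88 to 7.21.

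Of 48 further apoptosis genes tested, out of 55 with a probe set, 1 rose and 2 fell from E10.5 to E12.5, a count near the 5.26% of all genes called there. In either shorter interval 0 were called, where 0.176% and 2.02% of all genes were. The median change of these 48 genes from E10.5 to E12.5 was -0.12 against -0.10 for all genes. Endog, a mitochondrial nuclease that can cut nuclear DNA in dying cells, read 8.27, 7.57 and 8.59 at E10.5 and 6.71 and 6.23 at E12.5, and fell by 1.67 (SE 0.32, limma adjusted p = 0.014) with both tested probe sets called. Bnip1, a BH3-type protein of the endoplasmic reticulum that acts in vesicle fusion, fell by 1.34 (SE 0.30, adjusted p = 0.0317), from 5.56, 4.82 and 6.04 to 4.17 and 4.11. Jun, an AP-1 factor whose activity promotes neuronal death and also growth, rose by 1.26 (SE 0.30, adjusted p = 0.0366), from 7.01, 6.99 and 6.92 to 8.06 and 8.40, on 1 of its 2 tested probe sets.

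Of 36 genes of the p53 target and family list, 3 rose and 1 fell from E10.5 to E12.5, where 3.49% of all genes were called higher and 1.78% lower, and 2 rose from E11.5 to E12.5, where 2.02% of all genes were called in either direction. Gadd45a, a growth arrest gene with p53-dependent and independent induction, read 3.35, 3.80 and 3.50 at E10.5, 4.10, 3.65 and 4.01 at E11.5, and 7.395 and 8.933 at E12.5. Its E10.5 values lay below the filter level of 3.94. Gadd45a passed the filter only through its E12.5 values, so its place in these counts carries that selection. Btg2, an antiproliferative gene also used by neural precursors at their last divisions, rose by 1.39 from E10.5 (SE 0.34, adjusted p = 0.0394) and by 1.81 from E11.5 (SE 0.34, adjusted p = 0.0193). Tob1, of the same antiproliferative family, rose by 1.69 (SE 0.34, adjusted p = 0.0191), and Sesn2, a stress-induced inhibitor of growth signalling, fell by 0.93 (SE 0.24, adjusted p = 0.0499). The canonical target Cdkn1a, singled out after its values were seen, read 5.13 to 5.94 on all arrays with a change of -0.20 (adjusted p = 0.694). The list's median change was 0.09 from E10.5 to E12.5.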

How the data were processed

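Affymetrix-type probe set signals of 8 arrays were used. The deposited values are log2 signals. The submitters' processing notes list GCOS 1.4 without saying what it did. Summarization, background correction and normalization by the authors: not given in the sources used here. RNA was pooled from 3 embryos per array and amplified, per the labels' protocols.

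From these values, 64 control probe sets and the lowest 40% by mean signal were left out. Stage was fitted over all 8 arrays in 1 model with limma 3.58.1 in R 4.3.3 (5 residual degrees of freedom, empirical Bayes with a trend on mean signal), with two-sided p-values adjusted by Benjamini-Hochberg over 27022 probe sets and a threshold of 0.05. The fit was run on simulated data with independent noise and with shifts larger than any member change. That simulation held no array-wide differences such as those described above. It checks the code and says nothing about the calls given here. Gene names came from the platform annotation of 2016, updated by gene identifier for 34754 of 34958 probe sets with 1 symbol; 932 had several symbols and 9211 none. RefSeq promoters matched 28 of the 31 members.

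The members, the gene lists and the tests were chosen with earlier results of these data known. Values on every array are given for the called members and, per role, for the member with the highest mean signal and that with the smallest F-test p. Genes of wider lists are named where called. The labels call the arrays biological replicates. Alternatives were other normalizations, filters, a pseudocount, the prior without trend, array weights, a replicate block, averaged probe sets and arrays left out.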

Additional observations from a re-analysis of the deposited data

How the results depend on the processing

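Count of members called, given here as E11.5 against E10.5, E12.5 against E11.5, E12.5 against E10.5 and the F test, was 0, 0, 2 and 1. Leaving out single arrays gave 0 throughout, 0 to 2, 0 to 4 and 0 to 2. Quantile normalization gave 1 in the second and 2 in the F test. Median centring gave 0 in the F test. E12.5 against E10.5 gave 1 with 64 added on the linear scale, with no filter, with no trend, with averaged probe sets and with E10.5 C and E11.5 A left out together (an alternative added after seeing the data), and the F test gave 0 with no filter and with averaged probe sets. Array weights gave 2, 15, 5 and 15, but their estimation did not converge and put a weight of 218 on E11.5 B against at most 1.198 on any other array, and the cause was not tested. With the replicate letters as a block the last 2 counts were 0 and 0; for E12.5 against E10.5 the changes were 1.63 for Bcl2 (adjusted p = 0.0743) and -1.6 for Bmf (adjusted p = 0.101). Whether the letters pair the arrays is not known. Same-letter arrays of different stages had correlations of deviations from the stage means of -0.39 to 0.13 over 7 pairs. Not every array correlated best with its own letter. Deviations within a stage cancel out, so those of E12.5 A and E12.5 B mirror each other, and this check cannot exclude pairing.

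Bcl2 was higher and Bmf lower at E12.5 than at E10.5 in all 18 alternatives, and they passed in 12 and 7. For both genes these passes include the fit with array weights, whose estimation did not converge. Signs turned only for changes that passed in neither fit. From E10.5 to E11.5, Bmf was 0.225 after quantile normalization, 0.075 with array weights and 0.17 without E10.5 C and E11.5 A, and -0.643 to 0.044 with single arrays left out. Birc6 was 0.013 after quantile normalization. Bak1 was -0.054 with array weights and -0.16 without those 2 arrays, and -0.10 to 0.24 with single arrays left out. Birc2 was -0.243 and -0.004 in those settings, and -0.41 to 0.43 with single arrays left out. Bcl2 was -0.046 with averaged probe sets, and -0.10 to 0.44 with single arrays left out. From E11.5 to E12.5, quantile normalization gave -0.075 for Mcl1, -0.41 for Bcl2l11 and -0.074 for Cycs, and averaged probe sets gave 0.11 for Mdm2. From E10.5 to E12.5, Mdm2 was -0.034 with array weights and -0.041 with the replicate block, and -0.20 to 0.31 with single arrays left out. The cause of these turns was not tested. Over all 27022 probe sets, calls numbered 34, 492, 1255 and 788. They were 5017, 12520, 3371 and 14230 with array weights and 5, 280, 531 and 351 with the replicate block. Without the trend there were 6 in the first comparison, with 64 added 0 (and 34 with the values as deposited), and without E10.5 C and E11.5 A together 103. Leaving out single arrays gave 5 to 56, 114 to 905, 209 to 1610 and 189 to 1046, the lowest of the last 3 without E12.5 B. Averaged probe sets gave 313 in the second.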

Other observations

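Of 25 tested genes that clear dying cells, out of 30 with a probe set, 1 passed from E10.5 to E12.5, where 5.26% of all genes were called. It was Anxa5, which encodes annexin V, a protein that binds phosphatidylserine on dying cells. It read 5.73, 5.94 and 6.43 at E10.5, 6.395, 6.704 and 7.15 at E11.5, and 7.16 and 7.66 at E12.5, and rose by 1.38 from E10.5 to E12.5 (SE 0.31, limma adjusted p = 0.0298). The median change of the list was 0.03 against -0.10 for all genes. Mertk, an engulfment receptor of pigment epithelium and macrophages singled out after its values were seen, changed by 0.35 and did not pass (adjusted p = 0.403).

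None of the 12 tested macrophage genes passed from E10.5 to E12.5, out of 18 with a probe set before the signal filter. Csf1r, the receptor that macrophages need, read 8.39, 7.80 and 10.12 at E10.5 and 9.98 and 9.52 at E12.5. Laptm5, a lysosomal protein of blood cells, was singled out after its values were seen: it read 6.49, 12.30 and 7.32 at E10.5 and between 12.2 and 12.7 on the other 5 arrays. It therefore set much of the summed macrophage signal, whose log2 was 9.62 to 12.46 at E10.5 and 12.85 and 12.94 at E12.5.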
